A study of Mus musculus with 2 samples.

Results

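Barcodes that held T cell and macrophage transcripts together are described here, in droplet single-cell RNA sequencing of mouse Hepa1-6 tumours. A barcode is the tag that all transcripts of 1 droplet share, and it usually stands for 1 cell. A mixed barcode had at least 2 unique molecular identifiers (UMIs, counted molecules) of the T cell receptor subunits Cd3e, Cd3d and Cd3g, at least 3 of the macrophage genes Lyz2, Csf1r, C1qa and C1qb, and at most 2 of the epithelial keratins Krt8 and Krt18. Only barcodes with 500 UMIs or more, 300 genes or more and no more than 15% of UMIs from mitochondrial genes were considered, and no doublets were removed. By this rule 450 of 15267 kept barcodes were mixed, 123 of 7091 in the control library and 327 of 8176 in the treated library. The keratin limit left out 17 of 140 control barcodes and 48 of 375 treated barcodes that met the other conditions. The libraries shared 24 barcode sequences, and 0 of the mixed barcodes were among them. The members were chosen on their transcripts, so every value of theirs is given as a description and nothing is tested.

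Hepa1-6 is a mouse hepatoma line, and the tumours came from mice labelled control, with no agent named, or from mice given CD147-LYTACs, lysosome-targeting chimaeras directed at the surface protein CD147 (basigin). The treated mice had 40 mg/kg every 3 days for 4 doses, given into the peritoneum or a vein (the labels name both routes), and tumours were collected on day 12. Sorted CD45- and CD45+ cells were recombined at 1 part to 3 parts before loading, so the number of immune cells in a library does not measure their number in the tumour. Each group was 1 library, how many tumours it pools is not stated, and the 95% intervals below cover counting error only.

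T cells recognise peptides through the T cell receptor, which signals through the CD3 subunits. CD8 T cells kill target cells with granzymes and perforin, and CD4 T cells help or, with Foxp3, restrain other immune cells. Macrophages engulf dying cells and debris, show peptides on MHC class II proteins and make complement C1q. In tumours they arise largely from blood monocytes and touch T cells often. In a droplet experiment 2 cells can enter 1 droplet by chance, cells can stay attached through dissociation, and free or engulfed RNA can be counted with a cell.

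The mixed barcodes were set beside barcodes of a single lineage of the same library. Single T barcodes met the T cell and keratin conditions with fewer than 3 myeloid UMIs (3466 control and 2563 treated). Single M barcodes met the myeloid and keratin conditions with fewer than 2 T cell UMIs (265 and 628). A pair is the sum of 1 single T and 1 single M barcode. All 918490 control pairs and all 1609564 treated pairs were enumerated, so no pair was drawn at random. Transcripts that the rule did not count were summed in a T core of 15 genes (such as Trac, Lck and Thy1) and a myeloid core, or M core, of 12 genes (such as Cd68, Ctss and Spi1).

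Mixed barcodes made up a larger part of the T cell barcodes in the treated library. They were 3.43% (95% interval 2.86 to 4.07) of control barcodes with at least 2 T cell UMIs and 11.3% (10.2 to 12.5) of treated ones. Among barcodes with at least 3 myeloid UMIs they were 31.7% (27.1 to 36.6) in the control and 34.2% (31.2 to 37.3) in the treated library, intervals that overlap. The denominators moved in opposite directions, with fewer single T and more single M barcodes in the treated library. As a share of all barcodes that met either condition, the values were 3.19% (2.66 to 3.80) and 9.30% (8.36 to 10.3).

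Near the limits of the rule, barcodes just inside and just outside held overlapping amounts of both lineages. The 7 control barcodes with exactly 3 myeloid UMIs had a median of 19 M core UMIs, against 2 in the 30 with 2 myeloid UMIs. In the treated library these medians were 12 (27 barcodes) and 14 (57 barcodes). The 9 control and 33 treated barcodes with exactly 2 T cell UMIs had medians of 18 and 13 T core UMIs, against 1 and 7 in the 18 and 45 barcodes with 1. At the keratin limit, 13 control and 46 treated barcodes with 2 keratin UMIs were kept and 5 and 12 with 3 were left out. The low edge of the myeloid condition in the treated library therefore separated barcodes with like M core content.

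Mixed barcodes held about as many molecules as a pair of barcodes. The median was 16540 UMIs in the control library and 12378 in the treated library. Pairs had medians of 13923 and 12731 UMIs, single T barcodes 6514 and 6534, and single M barcodes 6008 and 5019.5. The ratio of the mixed median to the pair median was 1.19 in the control and 0.972 in the treated library. Mixed barcodes had a median of 4236 and 3755 genes, against 2511 and 2527 in single T and 2083 and 1853 in single M barcodes. The mitochondrial share was a median of 3.06% and 2.63% in mixed barcodes, 2.42% and 2.44% in single T and 2.44% and 1.74% in single M barcodes. The spread was wide, from 4694.6 to 39326.9 UMIs between the 5th and 95th percentiles of control mixed barcodes and from 4259.2 to 33396.7 of treated ones. A tail at the lower end had no more UMIs than a single-lineage barcode.

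**Figure D1:**
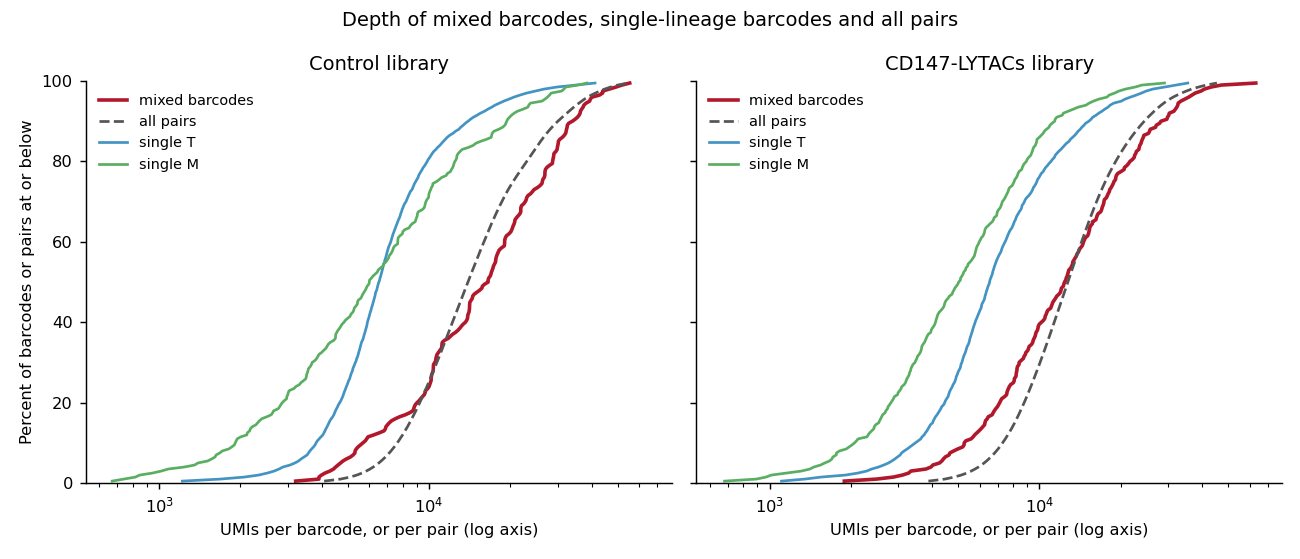
Percent of barcodes or pairs (vertical axis) at or below a number of UMIs (horizontal log axis), for mixed barcodes (red), all pairs (dashed), single T (blue) and single M barcodes (green) of each library. The red curve runs near the dashed curve (medians 16540 and 13923 UMIs in the control, 12378 and 12731 in the treated library), with more barcodes than pairs at low UMI numbers.

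Both lineages were present at the level of a whole barcode. The T core averaged 60.6 UMIs per mixed barcode in the control and 54.6 in the treated library, which was 119% and 104% of the mean of single T barcodes. The M core averaged 111 and 73.6 UMIs, which was 112% and 139% of the mean of single M barcodes. Single T barcodes held 3.60 and 5.71 M core UMIs on average (3.63% and 10.8% of the single M level). They were limited to fewer than 3 myeloid rule UMIs, so this low level is partly set by the rule. Single M barcodes, limited to fewer than 2 T cell rule UMIs, held 0.875 and 1.40 T core UMIs. At least 10 UMIs of each core were found in 86.2% (78.8 to 91.7) of control and 87.5% (83.4 to 90.8) of treated mixed barcodes. Pairs reached this in 90.4% and 92.3%, single T barcodes in 2.77% and 8.15%, and single M barcodes in 1.51% and 4.62%. The T core was a median of 43.75% of both cores' UMIs in control and 50% in treated mixed barcodes (pairs 50.4% and 53.5%). Most mixed barcodes thus held both lineages by genes outside the rule, and the remainder had fewer than 10 UMIs of at least 1 core.

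**Figure D2:**
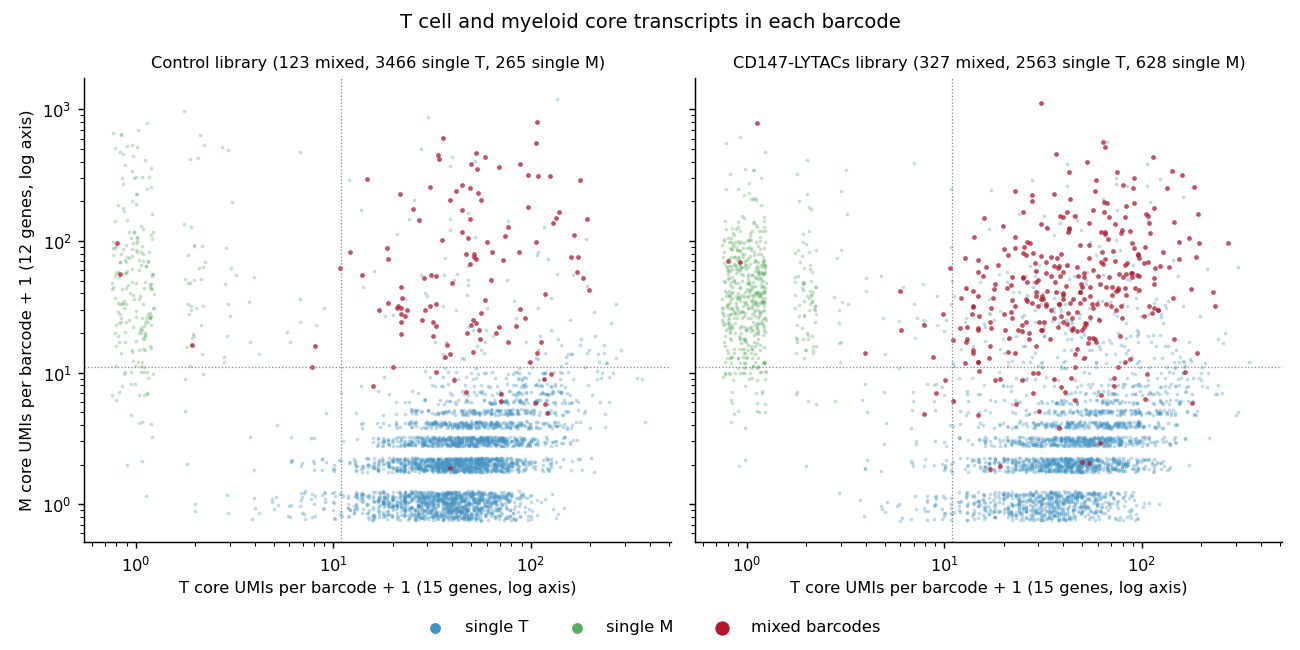
T core UMIs plus 1 (horizontal log axis) against M core UMIs plus 1 (vertical log axis) in each barcode (points shifted slightly at random to part ties), for mixed (red), single T (blue) and single M (green) barcodes of each library; dotted lines mark 10 UMIs. Red points fill the upper right, where 86.2% of control and 87.5% of treated mixed barcodes lie, and 8.15% of treated single T barcodes lie there as well.

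On the T cell side, mixed barcodes were mostly of the CD8 kind, at a share close to that of pairs. CD8 is the co-receptor of killer T cells and CD4 that of helper and regulatory T cells. Cd8a or Cd8b1 without Cd4 was found in 75.6% (67.0 to 82.9) of control and 75.8% (70.8 to 80.4) of treated mixed barcodes. Pairs had 75.2% and 77.0%, and single T barcodes 76.8% and 78.2%. Cd4 alone was found in 5.69% (2.32 to 11.4) and 6.73% (4.26 to 10.0), against 9.20% and 8.04% of pairs. Both co-receptors together were found in 10.6% (5.75 to 17.4) of control mixed barcodes against 4.79% of pairs, and in 6.42% (4.02 to 9.65) of treated ones against 4.42%. As a background for these shares, Cd8a or Cd8b1 without Cd4 was seen in 3.40% and 3.98% of single M barcodes and Cd4 alone in 2.64% and 1.75%. Single M barcodes were limited to fewer than 2 T cell UMIs, so this background is partly set by the rule. Some myeloid cells also express Cd4, so a Cd4 UMI in a mixed barcode does not by itself mark a CD4 T cell. With 7 control and 22 treated barcodes of the Cd4 kind, no state of theirs could be described further. Foxp3, the regulator of regulatory T cells, had UMIs in 5 of 123 control and 24 of 327 treated mixed barcodes. In single T barcodes it had UMIs in 128 of 3466 and 105 of 2563.

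T cell genes were then compared per 1000 T core UMIs, mixed over single T barcodes, so that the RNA of the myeloid side does not dilute them. Only genes with a level in single M barcodes under 10% of that in single T barcodes and with at least 50 UMIs over all mixed barcodes were used. Over all such genes, 4.04% of 297 in the control and 4.88% of 410 in the treated library were at least 1.5-fold higher, and 10.1% and 1.95% were at least 1.5-fold lower. Of the inhibitory receptors and exhaustion genes, which mark chronically stimulated T cells, 0 of 8 were past 1.5-fold in either direction in either library, with medians of 0.17 and 0.08 on the log2 scale (all genes -0.01 and 0.07). Beside the shares over all genes, a count of 0 among 8 says little. The list has 14 genes, and Havcr2 (TIM-3) was not used, with a control single M level 81.0% of the single T level. The inhibitory receptor Lag3 was highest in the control at 0.54 (0.31 to 0.77) and was at 0.07 in the treated library. Pdcd1, which encodes the receptor PD-1, was at 0.01 (-0.15 to 0.17) in the control and -0.07 (-0.18 to 0.04) in the treated library. The exhaustion regulator Tox was at 0.14 and 0.19 and the costimulatory receptor Tnfrsf9 (4-1BB) at 0.34 and 0.30. Ctla4, a competitor of CD28 for its ligands, lay at -0.35 (-0.49 to -0.20) in the control and 0.24 (0.16 to 0.32) in the treated library.

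Cytotoxic genes had medians of -0.18 in the control and -0.20 in the treated library, below those of all genes. Of 13 measured in the control, 1 was at least 1.5-fold higher (the pore-forming Prf1, 0.62, or 0.54 without the richest barcode) and 3 were lower. Of 15 in the treated library, 0 were higher and 1 was lower (3 without the richest barcode of each gene). Gzmb, the granzyme of activated killer cells, was at 0.02 (-0.11 to 0.15) and -0.25 (-0.34 to -0.17). Gzmc, a granzyme of strongly stimulated T cells, was the cytotoxic gene lower by 1.5-fold in both libraries, at -0.97 (-1.49 to -0.49) and -1.38 (-1.73 to -1.05). It had UMIs in 17 control and 25 treated mixed barcodes. The chemokine Xcl1, which draws cross-presenting dendritic cells, was at -1.83 (-2.75 to -1.05) in the control, from 13 UMIs, and at -0.07 in the treated library. Interferon gamma (Ifng) was at 0.18 and -0.33. Of the naive and memory genes, Satb1 was at -0.02 and 0.41, and Lef1 at -0.67 and 0.43. Of the regulatory T cell list, Ikzf2 was at -0.04 and 0.39 and Tnfrsf4 (OX40) at -0.61 and -0.01, and 2 of 4 genes in the control and 0 of 4 in the treated library were at least 1.5-fold lower.

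On the myeloid side, under the rule as used, the macrophage kind was more frequent in mixed barcodes than in pairs, and the neutrophil kind less frequent in the treated library. A barcode was given a call when at least 3 of 6 genes of a list had a UMI, and a barcode could have several calls. The macrophage call (with genes such as C1qc, Ms4a7, Adgre1, Apoe and Trem2) was met by 45.5% (36.5 to 54.8) of control and 63.9% (58.4 to 69.1) of treated mixed barcodes, against 31.9% and 47.7% of pairs and 30.9% and 45.9% of single M barcodes. In single T barcodes it was met by 0 of 3466 control barcodes, which allows up to 0.0866% (3 counts of the total), and by 0.624% of treated ones. The rule counted C1qa and C1qb, which are made with C1qc, so a high macrophage share was partly built into the choice, in mixed and single M barcodes alike. Single T barcodes were limited to fewer than 3 myeloid rule UMIs, so their low share was partly built in as well. The monocyte call was met by 18.7% and 37.3%, against 19.7% and 37.5% of pairs. The dendritic call was met by 8.94% and 2.45%, against 7.57% and 1.80%.

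The neutrophil call (S100a8, S100a9, Csf3r, Cxcr2, Retnlg and Il1r2) was met by 5.69% (2.32 to 11.4) of control mixed barcodes against 9.53% of pairs, and by 11.6% (8.36 to 15.6) of treated ones against 27.0%. Lyz2 is also a neutrophil gene, and 22.3% of treated single M barcodes met the neutrophil call. All 6 neutrophil genes had UMIs in mixed and in single M barcodes of both libraries. Their sum averaged 39.3 UMIs in control and 22.5 in treated mixed barcodes, with medians of 2 and 1, and 68.6 and 98.7 in single M barcodes. A single control mixed barcode held 2615 of these UMIs. The macrophage excess over pairs, 13.6 and 16.2 percentage points, was 12.4 and 7.43 with neutrophil-call barcodes left out of mixed and single barcodes, and 7.11 and 4.14 with Lyz2 left out of the rule. The size of the excess thus moved with how neutrophils and Lyz2 were treated. Under the rule as used its interval was 4.64 to 22.9 points in the control and 10.8 to 21.5 in the treated library. The treated values of 7.43 and 4.14 lie below that interval. With Lyz2 left out 86 control and 213 treated mixed barcodes remained, and whether the excess then exceeds counting error was not tested. At a matched depth of 1000 UMIs per barcode or pair, C1qc was detected in 17.4% of control and 17.3% of treated mixed barcodes (48.8% and 55.0% at full depth), against 9.71% and 8.30% of pairs. S100a8 was detected at that depth in 4.16% and 7.02%, against 8.60% and 20.9% of pairs. This thinning left out 0 mixed barcodes and 0 pairs.

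**Figure D3:**
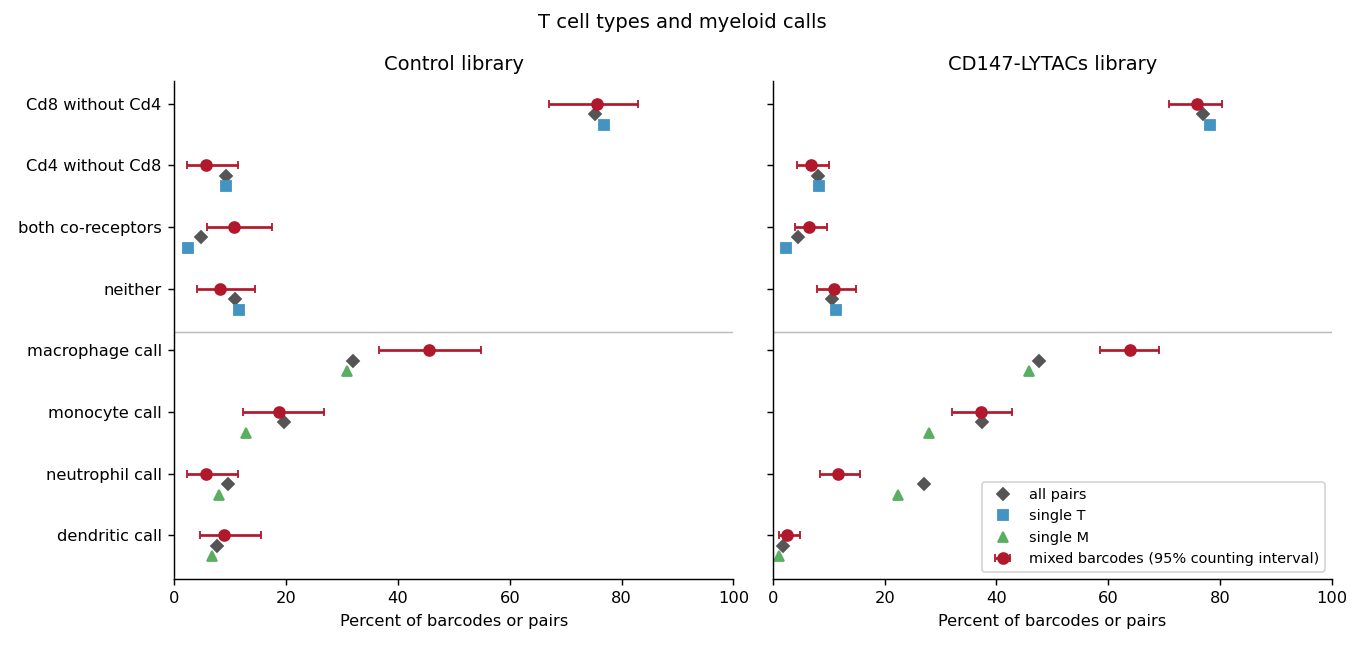
Percent of mixed barcodes (red, with 95% counting intervals), all pairs (grey), single T (blue, upper rows) and single M barcodes (green, lower rows) with each T cell kind and each myeloid call, for the 2 libraries. Red and grey symbols lie together for CD8 (75.6% and 75.2% in the control), apart for the macrophage call (63.9% and 47.7% in the treated library) and apart in the opposite direction for the treated neutrophil call (11.6% and 27.0%).

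Many barcodes carried none of these calls. No myeloid call was met by 39.8% and 20.5%, against 46.4% and 22.6% of single M barcodes. The macrophage call was more frequent with more myeloid rule UMIs, on which the strata are built and which went with depth. With 3 to 9 of these UMIs, 8.11% of 37 control and 42.0% of 112 treated mixed barcodes met the macrophage call, and with 30 or more, 81.6% of 49 and 89.4% of 113 did. The median depth of these strata was 11140 and 21877 UMIs in the control and 8289 and 17368 in the treated library. The neutrophil call had no such order, at 5.41%, 0% and 10.2% in the control and 10.7%, 9.80% and 14.2% in the treated library from the lowest to the highest stratum. Lyz2 was the only myeloid rule gene with a UMI in 13 control (10.6%) and 42 treated (12.8%) mixed barcodes. Few barcodes met a call of another lineage, though many held a UMI of such a list. The tumour cell call was met by 4 control (3.25%) and 12 treated (3.67%) mixed barcodes, against 0.519% and 0.546% of single T and 1.89% and 0.955% of single M barcodes. No UMI of the tumour list was found in 48.8% and 45.6% of mixed barcodes, 68.2% and 63.1% of single T and 63.0% and 65.6% of single M barcodes. The tumour list holds Krt8 and Krt18, which the rule capped together at 2 UMIs in mixed, single T and single M barcodes. Both tumour values are therefore partly set by the rule. The B cell call was met by 0 of 123 and 0 of 327, which allows up to 2.44% and 0.917% (3 counts of the total). Of the 6 B cell genes 3 had UMIs in mixed barcodes, and 78.0% and 79.5% of mixed barcodes had none. The platelet list, which holds Pf4, averaged 1.58 and 7.76 UMIs per mixed barcode and 0.811 and 7.53 per single M barcode.

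Myeloid genes were compared per 1000 M core UMIs, mixed over single M barcodes, with the same limits. Over all such genes, 19.7% of 639 in the control and 7.09% of 437 in the treated library were at least 1.5-fold higher, and 8.92% and 25.9% lower, so these shares are the background for each list. Of the lipid-associated macrophage genes, 4 of 8 were higher in the control (median 0.66, all genes 0.16) and 0 of 8 in the treated library (median -0.33, all genes -0.22). The lipoprotein lipase gene Lpl was at 1.36 (1.15 to 1.58) and 0.58 (0.44 to 0.72), and the elastase Mmp12 at 1.36 and 0.53. Without the richest barcode of each gene Lpl was at 1.16 and 0.44 and Mmp12 at 1.25 and 0.23. Trem2, a lipid receptor of macrophages, was at 1.48 in the control, from 68 UMIs in 24 barcodes (1.07 without the richest), and at -0.33 in the treated library. Spp1, which encodes osteopontin, was at -1.59 (-1.67 to -1.52) in the treated library. Of 3 resident macrophage genes, the receptor for dying cells Mertk was at 1.17 (0.79 to 1.55) and 0.51 (0.19 to 0.83), and the mannose receptor Mrc1 at 0.50 and 0.37. Without the richest barcode of each gene Mertk was at 0.87 and 0.13 and Mrc1 at 0.25 and 0.30.

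Arginase and hypoxia genes included 2 of 4 at least 1.5-fold higher in the control and 1 of 4 in the treated library, with 0 lower. Nos2, the inducible nitric oxide synthase, was higher in both libraries, at 0.69 (0.51 to 0.86; 0.47 without the richest barcode) and 1.31 (1.13 to 1.49). Arg1, the arginase of suppressive macrophages, was at 2.03 (1.81 to 2.25) in the control, where 22 mixed barcodes had it. Without the richest barcode this value was 1.64, outside the interval. In the treated library, where 153 had it, Arg1 was at -0.48 (-0.57 to -0.40). Of the monocyte genes 2 of 4 were higher and 0 lower in the control (median 0.19), and 0 of 5 higher and 4 lower in the treated library (median -0.92). F13a1, a coagulation factor gene of monocytes, was at 0.79 and 0.12, Chil3 at -0.25 and -1.17 and the integrin Itgam at -0.34 and -1.08. Without the richest barcode of each gene 1 of 4 was higher and 1 lower in the control. Neutrophil genes were lower by at least 1.5-fold for 5 of 12 in the control and 10 of 12 in the treated library, and for 7 and 11 without the richest barcode of each gene. S100a8, an alarmin of neutrophils, was at -0.90 and -2.77, and Retnlg at -4.09 and -2.88. With Lyz2 left out of the rule the control median of the neutrophil list turned from -0.50 to 1.11. That alternative left 86 mixed and 129 single M control barcodes, and its value without the richest barcodes was not computed. Under the rule as used a single control mixed barcode held 56.0% of the S100a8 UMIs. Without the barcode richest in it S100a8 was at -2.07 in the control and -3.40 in the treated library. Retnlg was at -5.40 and -4.20 without its richest barcodes.

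Of a chemokine list that holds attractants of T cells and of monocytes, 3 of 7 were higher (Ccl7, Ccl8 and Ccl12, known best as monocyte attractants) and 1 lower (Ccl3) in the control, and 2 of 6 higher (Cxcl9 and Ccl8) in the treated library. Without the richest barcode of each gene 1 was higher and 2 lower in the control and 1 was higher in the treated library. Cxcl9, the interferon-induced ligand of CXCR3, was at 0.27 (0.15 to 0.38) and 0.81 (0.68 to 0.94), and Ccl8 at 1.82 (1.66 to 1.99) and 0.60 (0.50 to 0.70). MHC class II genes were level in the control (0 of 7 past 1.5-fold, median 0.09). In the treated library 2 of them could be measured on this scale, H2-Ab1 at 0.51 (0.46 to 0.56) and H2-DMb1 at 0.44. The others had a level in single T barcodes above the 10% limit.

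**Figure D4:**
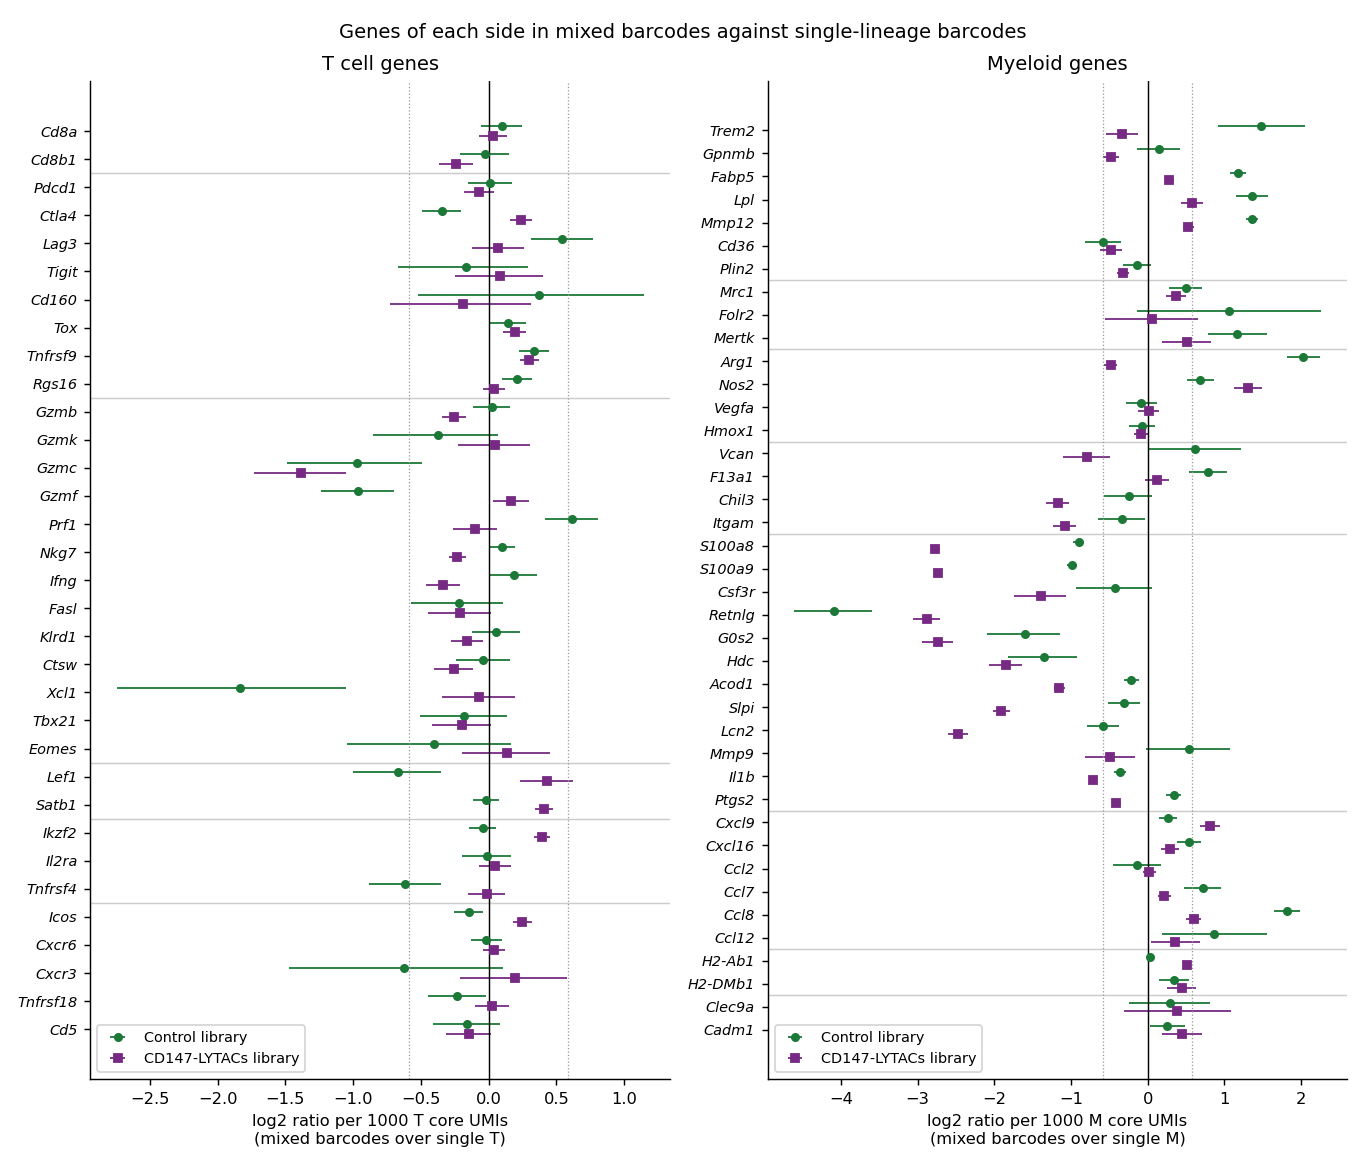
Log2 ratio of mixed over single-lineage barcodes, per 1000 T core UMIs for T cell genes (left) and per 1000 M core UMIs for myeloid genes (right), for genes measured in both libraries, with 95% counting intervals; grey lines separate the lists and dotted lines mark 1.5-fold. T cell genes such as Pdcd1 (0.01 and -0.07) lie near 0, and neutrophil genes such as S100a8 (-0.90 and -2.77) lie far to the left.

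Against pairs, most genes were level. Of 4063 genes with at least 100 UMIs in the mixed barcodes of each library, 97.2% in the control and 96.8% in the treated library lay within 1.5-fold of the mean pair, in CPM (a gene's UMIs scaled to the same total for every set of summed barcodes). Across these genes the log2 CPM of mixed barcodes correlated with that of pairs at r = 0.982 and 0.983. On another scale, log2 of CPM plus 1, r was 0.634 and 0.754 with single T and 0.804 and 0.808 with single M barcodes. Values on the different scales are not directly comparable. Genes are not independent replicates and both sides share the library, so these correlations only describe. In both libraries 35 genes (0.861%) were at least 1.5-fold higher than in pairs and 10 (0.246%) at least 1.5-fold lower. The 35 include C1qa and C1qb, which the rule counted, and 33 lie outside the rule.

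The genes highest over pairs included known macrophage genes. Mmp13 (ENSMUSG00000050578), a collagenase gene on chromosome 9 (7272514 to 7283331, GRCm38), was at 263 CPM against 92.0 in control pairs and at 182 against 70.5 in treated pairs. The other 9 named by the rule were the complement factor Cfb, the chemokines Ccl24 and Ccl8, the MHC class I-like H2-M2, the IL-18 inhibitor Il18bp, the complement subunit C1qc, Lpl, the adhesion molecule Vcam1 and Mmp12. Their log2 ratios ran from 0.94 (Vcam1) to 1.82 (Ccl8) in the control and from 0.93 (Mmp12) to 1.45 (Ccl24) in the treated library. Few barcodes carried some of them. Mmp13 had UMIs in 24 control and 81 treated mixed barcodes, and 1 barcode held 31% of the treated H2-M2 UMIs. With the richest barcode left out of the mixed barcodes alone, treated H2-M2 and Mmp12 were both at 0.58, under the 1.5-fold limit. With the richest left out of mixed, single T and single M barcodes they were at 0.81 and 0.68. With Lyz2 left out of the rule 6 genes were higher in both libraries, of which Ccl17, Ccl24, Cfb, Il18bp and Mmp13 were among the 35. With neutrophil-call barcodes left out 28 were higher, 25 of them among the 35, with C1qa and C1qb in both counts.

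The 10 genes lower than in pairs included the neutrophil genes S100a8 (-0.89 and -2.35) and S100a9 (-0.98 and -2.33) and the chemokine Ccl3 (-1.05 and -1.46), and the histone genes Hist1h1b and Hist1h1e. With Lyz2 left out S100a8 and S100a9 turned to 1.71 and 0.77 in the control. Under the rule as used a single control mixed barcode held 56.0% of the S100a8 and 65.1% of the S100a9 UMIs at most. The values with Lyz2 left out were not computed without the richest barcodes. Lars2, a mitochondrial tRNA ligase gene, was at -0.64 and -0.74 and stayed below the limit in both libraries under each of these alternatives. Cmss1 was at -0.61 and -0.95. A mixed barcode had on average 33.5 Cmss1 UMIs in the control and 14.4 in the treated library, against 22.9 and 15.7 in single T and 23.0 and 11.5 in single M barcodes. In the treated library a mixed barcode therefore had fewer Cmss1 UMIs than a single T barcode alone. Of the gene lists, 0 of 13 contact genes (integrins, costimulatory ligands and checkpoint ligands such as Cd274, which encodes PD-L1) and 0 of 11 interferon response genes were past 1.5-fold in both libraries. Over all 4063 genes 0.861% were higher and 0.246% lower, so a count of 0 in lists this short says little about them. Cd274 itself was at 0.08 and -0.14. The 4 cycling genes with enough UMIs had medians of -0.60 and -0.30, and 0 of them passed.

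T cell kinds and myeloid calls met in the same barcodes about as often as their separate shares imply. Cd8 without Cd4 and the macrophage call occurred together in 34.1% (25.8 to 43.2) of control and 49.2% (43.7 to 54.8) of treated mixed barcodes, and the products of the separate shares were 34.4% and 48.5%. For a Pdcd1 UMI with the macrophage call the values were 35.8% against a product of 35.5% and 44.6% against 43.2%. A Mki67 UMI, a sign of cycling, was found with the macrophage call in 14.6% (8.91 to 22.1) against 18.1% in the control and 21.1% (16.8 to 25.9) against 21.9% in the treated library. Both co-receptors were found with the neutrophil call in 7 treated barcodes, 2.14% (0.865 to 4.36) against a product of 0.746%. Those with the neutrophil call were deeper, with a median of 17941 UMIs against 11477 in the rest, and the part of depth in this was not tested.

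The treated library was then set against the control within mixed barcodes. Of 7350 genes that reached 100 UMIs when both libraries were added, 268 (3.65%) were at least 1.5-fold higher and 230 (3.13%) at least 1.5-fold lower in the treated library. A ratio of summed counts does not separate more barcodes of a kind from more RNA per barcode. The same ratio in pairs gives the difference between the libraries' single-lineage barcodes. With 1 library a group, none of these differences has a replicate check.

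Of the chemokine list 5 of 9 genes were at least 1.5-fold higher in the treated library (Ccl2, Ccl3, Ccl4, Ccl7 and Ccl12) and 1 was lower (Cxcl9), with a median of 0.60 (pairs 1.13). The monocyte attractant Ccl2 (ENSMUSG00000035385, chromosome 11, 82035571 to 82037453, GRCm38) was at 410 CPM against 56.1, a log2 ratio of 2.87 (2.61 to 3.14), and pairs had 2.22. Spp1 was at 348 against 53.9 CPM, or 2.69 (2.43 to 2.97), with 3.41 in pairs. The platelet factor Pf4, also a macrophage gene, was at 2.65 (pairs 3.45), and fibronectin Fn1 at 2.29 (pairs 2.42, and 3.66 in mixed barcodes without the richest barcode of each library). The chemokines Ccl7 and Cxcl3 were at 1.73 and 1.64 (pairs 1.81 and 2.46), and Gpnmb and Pdpn at 1.63 and 1.56 (pairs 1.84 and 1.53). In these 8 genes pairs were higher in the treated library too. The neutrophil gene Retnlg was at 1.98 (pairs 0.35) and the granzyme Gzma at 1.45 (pairs 0.54). Single barcodes held 60.1% of the treated Retnlg UMIs and 44.6% of the treated Gzma UMIs.

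Dendritic cell and antigen presentation genes were lower. Ccl17, a chemokine of activated dendritic cells, was at 30.5 CPM in the treated and 132 in the control library. This is -2.12 (-2.41 to -1.83) on the log2 scale, and pairs had -2.83. Mgl2 was at -1.47 (pairs -2.04) and Ccl22 at -1.41 (pairs -1.67). All 7 measured MHC class II genes were at least 1.5-fold lower, with a median of -0.75 (all genes 0.03), and in pairs the median was -1.48. The dendritic call was met by 8.94% of control and 2.45% of treated mixed barcodes, and its part in these values was not tested. Dcstamp, a fusion receptor of osteoclasts and macrophages, was at -2.05 in mixed barcodes and in pairs. Mfge8, a bridge between dying cells and phagocytes, was at -1.95 (-2.41 to -1.51) and at 0.46 in pairs. A single control barcode held 53.8% of its UMIs there, and without the richest barcode of each library the value was -1.02. The neutrophil granule gene Camp was at -1.35 and at 0.99 in pairs, with UMIs in 4 control and 7 treated mixed barcodes (-1.66 without the richest).

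Of the T cell lists, 5 of 16 cytotoxic genes were at least 1.5-fold higher in treated mixed barcodes (Gzma, Gzmk, Gzmf, Xcl1 and Eomes) and 0 lower, with a median of 0.11 (pairs 0.34). Of 4 regulatory T cell genes 2 were higher (Ikzf4 and Tnfrsf4), with a median of 0.69 (pairs 0.27). Of 12 inhibitory genes 1 was higher, Ctla4 at 0.67 (0.51 to 0.83), with 0.15 in pairs. Pdcd1 was at 0.11 (-0.07 to 0.30), with 0.29 in pairs. Of 9 cycling genes 7 were higher, with a median of 0.71, against 0.32 in single T barcodes and 0.18 in pairs. Mki67 was not among the 7, and had a UMI in 49 of 123 control and 112 of 327 treated mixed barcodes. Control mixed barcodes were deeper (median 16540 against 12378 UMIs), and the part of depth in these shares was not tested. Top2a, the DNA topoisomerase of dividing cells, was at 0.60 (0.34 to 0.86) and -0.02 in pairs. Of the CD147 and lactate genes 0 of 7 were past 1.5-fold, with a median of 0.27 (pairs -0.02). Bsg, which encodes CD147, had 166 CPM in the treated and 158 in the control library (log2 0.08, -0.10 to 0.26, pairs 0.18), and the lactate transporter gene Slc16a3 at 0.37 (0.14 to 0.61).

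**Figure D5:**
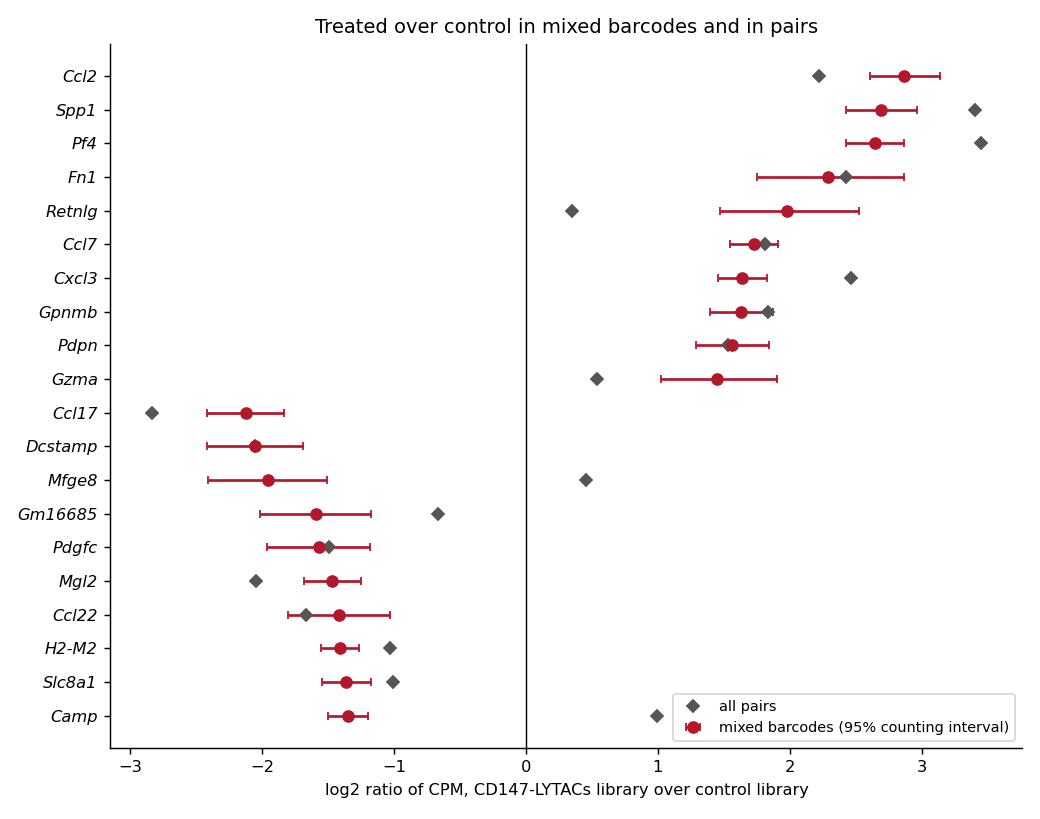
Log2 ratio of CPM in the treated over the control library for the 20 genes named by size, in mixed barcodes (red, with 95% counting intervals) and in all pairs (grey). Ccl2 (2.87 and 2.22) is higher in both, and Mfge8 (-1.95 and 0.46) and Camp (-1.35 and 0.99) are on opposite sides of 0.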

How the data were processed

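Droplet libraries of Hepa1-6 tumours, 1 control and 1 treated with CD147-LYTACs, were read as raw UMI counts per gene and barcode, which the authors deposited without normalization. Cell Ranger 3.0.2 and the mm10 build are named in the submitters' processing notes, and Cell Ranger 7.1.0 in the file headers. The libraries held 143495332 and 149812326 UMIs in 8150 and 9219 barcodes. The barcode filter and the rule for mixed barcodes are given above, and doublets were not called, since doublets are part of what the rule finds. The members and gene lists were chosen with earlier results of these data known. With 1 library per group no test was run. Shares have exact Clopper-Pearson intervals, UMI sums exact Poisson intervals and ratios of sums exact conditional binomial intervals, all at 95%. The intervals of sums and ratios count each UMI separately, so they do not cover the spread between barcodes. Pairs were enumerated in full. Beyond the lists, 10 genes in each direction were named, those furthest from 0 among genes past 1.5-fold (against pairs, by the library nearer 0), with at least 50 CPM in the higher library for treated over control, leaving out mitochondrial, ribosomal, antigen receptor segment, Xist, Y-linked and rule genes. Alternatives to the rule, the single-lineage classes and the UMI minimum are given in the closing section, some chosen after the data were seen. The calculations were checked on simulated counts. Gene positions are from GENCODE on GRCm38, and the list genes Cxcl11 and Mx1 were not matched. Python 3.11.15, numpy 2.4.6, scipy 1.17.1 and pandas 2.3.3 were used.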

Additional observations from a re-analysis of the deposited data

Results flagged for a closer look

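Of 79 genes measured on the T cell or the myeloid side in both libraries, 5 had log2 ratios of mixed over single-lineage barcodes on opposite sides of 0, with intervals that both left out 0 and at least 1 value past 1.5-fold. The difference between the libraries was not tested, since each group is 1 library. Gzmf, a granzyme gene, was at -0.96 in the control and 0.16 in the treated library on the T cell side. A single treated barcode held 24.7% of its UMIs, and without the richest barcodes the values were -1.38 and -0.24. Lef1, a transcription factor of naive and memory T cells, was at -0.67 and 0.43 (-0.90 and 0.31 without the richest barcodes). On the myeloid side Trem2 was at 1.48 and -0.33 (1.07 and -0.37). Vcan, the monocyte gene for versican, was at 0.62 and -0.79. A single control barcode held 48.8% of its UMIs, and without the richest barcodes Vcan was at -0.34 and -0.88. Arg1 was at 2.03 and -0.48 (1.64 and -0.49). With Lyz2 left out of the rule Arg1 was at 1.61 and -0.74 and Trem2 at 1.00 and -0.23.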

How the results depend on the processing

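Of 306 alternative values for 40 results, 270 stayed within the interval of the main value or, for counts of genes, within 1.5 times. Another 35 moved further and 1 reversed. The interval was a counting interval for shares, and that of the median over barcodes for depth and over the list's genes for lists. In short lists it ran from the lowest to the highest gene, so whether a list moved depended on the spread of its genes. The alternatives that leave out neutrophil-call barcodes or the barcode richest in a gene were chosen after seeing the data. The 306 values do not include leaving out the barcode richest in a gene. Under that alternative 26 ratios of the named genes to pairs moved out of their counting interval and 14 stayed. For the genes named for treated over control, 9 ratios moved and 11 stayed. Of the flagged genes' values 2 moved, 2 reversed and 6 stayed. The reversed value was the control median of the neutrophil list, 1.11 with Lyz2 left out of the rule, and without the richest barcode treated Gzmf (-0.24) and control Vcan (-0.34) reversed. Without it control Mmp9, whose interval held 0, turned from 0.53 to -1.52 (76.5% of its UMIs in 1 barcode), Gpnmb from 0.15 to -0.13, and Lcn2 from -0.58 to -2.53. The share of mixed barcodes was 2.30% and 6.66% (control and treated) with at least 10 myeloid rule UMIs, 2.31% and 6.76% without Lyz2, 2.58% and 6.96% with no keratin UMI, and 8.12% in the treated library with at least 5 T cell rule UMIs, where the depth ratio was 1.07. The treated difference from pairs with at least 10 myeloid UMIs was 3.55 points for CD8 (-1.14 under the rule as used), 9.52 for the macrophage call, -9.50 for the monocyte call and -6.42 for the neutrophil call. Without Lyz2 it was 4.14 for the macrophage and -3.67 for the neutrophil call, and without neutrophil-call barcodes 7.43 for the macrophage call. The neutrophil list was at -0.31 (treated) without Lyz2, and at -0.18 and -0.53 without neutrophil-call barcodes. The treated MHC class II median was 0.41 with at least 10 myeloid UMIs, 0.56 with at least 5 T cell UMIs, 0.25 without Lyz2, 0.55 with single barcodes that had 0 UMIs of the other lineage, 0.52 with no keratin UMI, 0.66 as a mean over barcodes and 0.34 without neutrophil-call barcodes. The treated T cell chemokine median was 0.95 as a mean over barcodes, and the treated cytotoxic median -0.28 with no keratin UMI. Both values given as a mean over barcodes are scaled to all UMIs and set over the mean of all pairs. They thus differ from the main values in scale and in comparison, not only in the kind of average. Genes higher than pairs in both libraries numbered 6 without Lyz2 and 553 with no minimum of UMIs. Genes lower numbered 3, 6 with no keratin UMI, 431 with no minimum, and 4 without neutrophil-call barcodes. With no minimum 1705 genes were higher and 2181 lower in treated mixed barcodes, since genes of a few UMIs then enter. No paired analysis was possible because each group has 1 library.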

Other observations

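Interferon response genes were lower in treated than in control mixed barcodes for 4 of 13 measured (Gbp4, Iigp1, Ifit1 and Rsad2), and 1 was higher (Irf7), with a median of -0.20 and -0.52 in pairs. Over all 7350 genes 3.13% were lower and 3.65% higher. Genes by which phagocytes take up dying cells were lower for 3 of 8 (Mertk, Axl and Mfge8) and higher for 0, with a median of -0.22, near 0 in pairs.

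A Mki67 UMI was found in 45.8% of control mixed barcodes with a Cxcl9 UMI and in 27.5% of those without, and in 45.8% and 29.4% of treated ones. Barcodes with Cxcl9 were also deeper, with medians of 19054 against 13137 UMIs in the control and 18187 against 10567 in the treated library, and the part of depth was not tested.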
